A study of Mus musculus with 15 samples.

Results

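The 12 arrays from iron-exposed mice were set against the 3 sham arrays, which together make up all 15 arrays of the series, to find differences that every iron day shared. For each gene the mean of the 5 iron day means, each day weighted equally, was compared with the sham mean. Male C57Bl/6NT mice, 8 to 9 months old, gave the left ventricular cardiomyocytes, which were released by collagenase and brought back to calcium in steps. Mice of the iron groups received 0.15 Gy (15 cGy) of iron ions over the whole body, at 1 GeV/nucleon, a linear energy transfer of about 151 keV/µm and 0.05 Gy/min. Cells were taken 1 day (3 arrays), 3 days (3 arrays), 7 days (2 arrays), 14 days (2 arrays) and 28 days (2 arrays) after exposure. Sham mice gave 2 arrays on day 1 (replicates 1 and 2) and 1 array on day 3 (replicate 3). Iron days 7, 14 and 28 had no sham array of the same day here, so for them iron exposure and time of collection cannot be told apart. By the labels, calcium-tolerant cardiomyocytes made up more than 90% of each preparation, which could still hold a few inflammatory and endothelial cells. The labels do not say that arrays came from separate mice, so the spread behind each p-value may be technical only.

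Iron ions deposit energy densely along narrow tracks, so that at a low dose some cells are crossed and others are not. In the ventricle, cardiomyocytes contract, fibroblasts lay down the collagens and proteoglycans of the matrix, and endothelial cells line the vessels. RNA of a cardiomyocyte preparation therefore carries muscle genes at high signal and genes of any remaining cells at lower signal. In such bulk RNA, fewer cells of a type and less RNA per cell cannot be told apart.

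Markers bore out the cardiomyocyte label: the mean log2 signal of 20 marker genes was 11.27 to 11.57 on the iron arrays and 11.44 to 11.54 on the sham arrays. Some arrays stood apart in other cells. The T cell marker score of an array, which is the mean of the log2 signals of 13 genes after centring each gene over the 15 arrays, was 2.60 and 2.45 on the iron day 28 arrays, 0.79 on iron day 14 replicate 1 and 1.39 on sham replicate 3. It was -0.02 or lower on the other 11 arrays. Sham replicate 3 also had the highest airway marker score (2.20), and sham replicate 1 the highest atrial marker score (1.29). The iron day 28 arrays differed from each other less than any other pair within a group, with an SD of 0.137 over genes against 0.206 to 0.351.

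Between all iron days and sham, the called genes included 4 of 28 matrix genes and 5 of 14 clock repressors and output factors, all lower, and 20 of 28 small nucleolar RNAs, all higher. Of those 28, 7 had a sham mean below the filter on mean signal and passed it only through the iron arrays (6 of the 20 called). On day 1 the medians of the clock and small nucleolar RNA lists were 0.03 and -0.13, near sham. Using moderated linear models (limma) and a Benjamini-Hochberg adjusted p under 0.05, 113 of 9969 genes were called. Of these 67 were higher (0.672% of genes tested) and 46 were lower (0.461%). An unadjusted p under 0.05 was found for 1590 genes, where 498 are expected at that threshold. The difference exceeded 2-fold for 20 higher and 7 lower genes. The balance of directions moved with the setting. With each array centred on its median, which moved the median difference of all genes to -0.0634, 52 genes were called higher and 147 lower. Quantile normalization gave 58 higher and 47 lower, and array weights, with no change of scaling, gave 138 higher and 218 lower. RNAs that do not code for protein were 34 of the 67 higher genes and 1 of the 46 lower genes, against 2.63% of genes tested.

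A call over all iron days did not mean that every day took part. The 5 day means all lay on the called side of sham for 84 of the 113 genes (44 higher, 40 lower), and 21.8% of all genes tested had their 5 day means on one side. For 23 higher and 6 lower genes at least 1 day lay on the other side, and for each of those 23 genes day 1 did. An F test among the iron days, which compares no sham mean but shares its estimate of spread with the sham arrays, passed for 52 of the higher and 25 of the lower genes, and for 19.2% of all genes tested. Every iron array lay beyond every sham array for 31 of the 113 genes (14 higher, 17 lower), a separation found for 0.953% of all genes tested. They are called the shared genes here. For each single day against sham, limma called 6 genes on day 1 (all lower), 278 higher and 523 lower on day 3, 193 higher and 266 lower on day 7, 59 higher and 24 lower on day 14, and 141 higher and 58 lower on day 28. These comparisons use the same 3 sham arrays. No gene (0) was called on each of the 5 days, and 32 had an unadjusted p under 0.05 on all of them (14 higher, 18 lower).

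**Figure D1:**
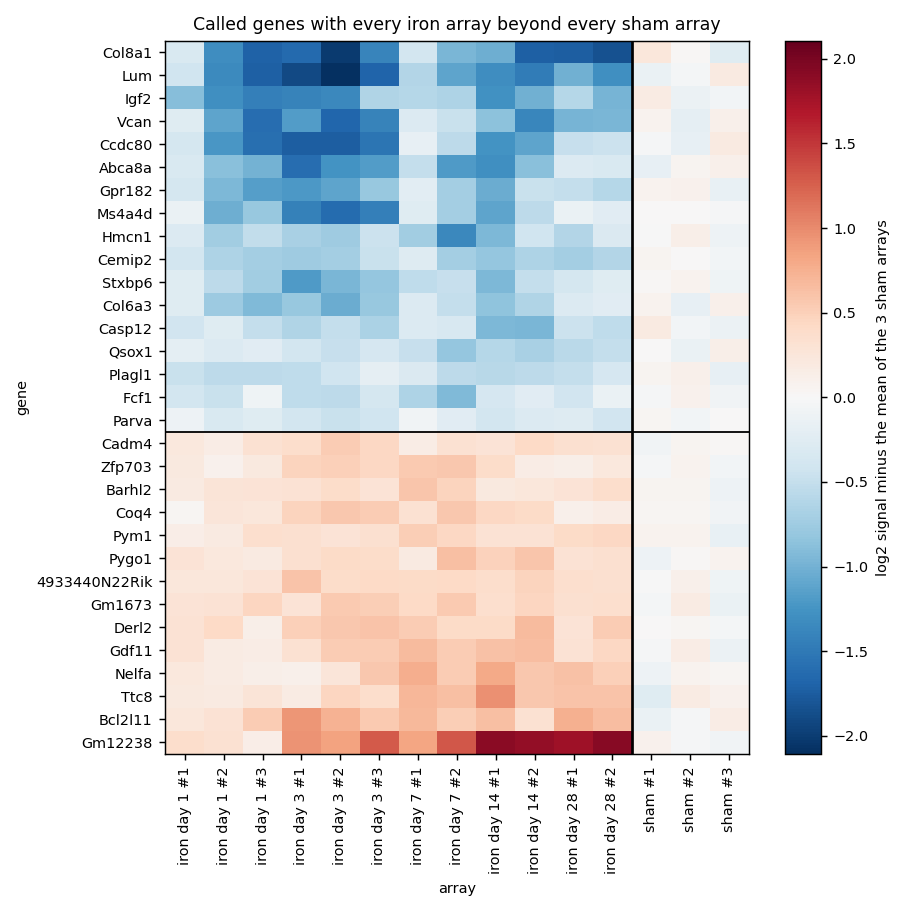
Log2 signal of the 31 shared genes (down the page) on the 12 iron arrays and, right of the vertical line, the 3 sham arrays, as the difference from the sham mean (blue lower, red higher; # marks the replicate). The 17 lower genes stand above the horizontal line and the 14 higher genes below it. Col8a1 and Lum are deepest blue on day 3 replicate 2, and Gm12238 the deepest red on days 14 and 28.

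Of the 17 shared lower genes, the matrix genes Col8a1 and Lum had the largest differences. Col8a1, a chain of the network-forming collagen VIII, ranged from 5.52 to 7.22 (median 6.02) in log2 signal on the iron arrays, against 7.78, 7.56 and 7.29 on the sham arrays. Its highest iron array, day 1 replicate 1, came close to the lowest sham array without reaching it. Col8a1 fell by 1.33 ± 0.239 (SE) on the log2 scale, with limma's adjusted p at 0.0159. Lum, a small proteoglycan that binds collagen fibrils, ranged from 5.14 to 6.83 (median 5.92) on the iron arrays, against 7.10, 7.21 and 7.43 on the sham arrays. Its highest iron array was again day 1 replicate 1, and the groups stood clearly apart. Lum fell by 1.29 ± 0.202 (SE; limma adjusted p = 0.00628). Vcan, the large proteoglycan versican, ranged from 4.99 to 6.41 (median 5.62) on the iron arrays, against 6.74, 6.47 and 6.77 on the sham arrays. The groups were close at day 1 replicate 1 and day 7 replicate 1. Vcan fell by 0.98 ± 0.207 (SE; limma adjusted p = 0.041).

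Ccdc80, a secreted matrix protein, ranged from 7.22 to 8.78 (median 7.79) on the iron arrays, against 8.94, 8.79 and 9.14 on the sham arrays. It fell by 0.95 ± 0.178 (SE; adjusted p = 0.0205), and its day differences ran between -0.36 on day 7 and -1.67 on day 3. Hmcn1, the basement membrane protein hemicentin, ranged from 7.80 to 8.87 (median 8.51) on the iron arrays, against 9.15, 9.28 and 9.05 on the sham arrays. It fell by 0.67 ± 0.14 (SE; adjusted p = 0.0405). Hmcn1 was measured by 77 probe sets, and the other 76 were lower in iron too, with a median difference of -0.39. Col6a3, a chain of the microfibrillar collagen VI, fell by 0.59 ± 0.122 (SE; adjusted p = 0.0386), and its iron arrays reached 5.96 at most, against a lowest sham array of 6.03.

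The 5 shared lower genes most even from day to day, relative to their size, were Plagl1, Cemip2, Igf2, Gpr182 and Lum. Igf2, an imprinted growth factor of the insulin family, read 6.72, 6.31 and 6.17 on day 1, 6.21, 6.26 and 6.97 on day 3, 7.01 and 6.96 on day 7, 6.34 and 6.59 on day 14, and 7.01 and 6.63 on day 28. The sham arrays read 7.78, 7.49 and 7.56, all clearly above the highest iron arrays. Igf2 fell by 0.98 ± 0.155 (SE; limma adjusted p = 0.00628), or 1.98-fold, and the 5 days lay between -1.22 and -0.63. Plagl1, an imprinted zinc-finger transcription factor, ranged from 5.87 to 6.26 (median 5.93) on the iron arrays, against 6.51, 6.57 and 6.29 on the sham arrays. It fell by 0.47 ± 0.0876 (SE; adjusted p = 0.0205), with day differences between -0.57 and -0.39. Cemip2, a hyaluronan-degrading protein of the cell surface, ranged from 5.53 to 6.08 (median 5.66) on the iron arrays, against 6.40, 6.35 and 6.28 on the sham arrays. It fell by 0.62 ± 0.102 (SE; adjusted p = 0.00858), with day differences between -0.73 and -0.49. The F test among iron days gave adjusted p-values of 0.172 for Igf2, 0.616 for Plagl1 and 0.654 for Cemip2. These genes were picked for evenness over the same days, so these F tests are not an independent test of it.

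Casp12, a caspase tied to the endoplasmic reticulum in the mouse, had the smallest p of the shared lower genes. It ranged from 5.21 to 5.91 (median 5.66) on the iron arrays, against 6.36, 6.11 and 6.04 on the sham arrays. The lowest arrays were those of day 14, at 5.23 and 5.21. Casp12 fell by 0.55 ± 0.0793 (SE; adjusted p = 0.00359), and its iron days differed by the F test (adjusted p = 0.0154). Qsox1, an enzyme that forms disulfide bonds in secreted proteins, ranged from 6.43 to 7.04 (median 6.77) on the iron arrays, against 7.26, 7.11 and 7.38 on the sham arrays. It fell by 0.50 ± 0.0769 (SE; adjusted p = 0.00618), least on day 1 (-0.24).

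Several of the other shared lower genes encode membrane proteins. Abca8a, a lipid transporter of the ATP-binding cassette family, fell by 0.87 ± 0.16 (SE; adjusted p = 0.0189). Its iron arrays ranged from 6.18 to 7.49, against 7.61, 7.84 and 7.88 on the sham arrays, and both day 28 arrays and day 1 replicate 1 came closest. Gpr182, a receptor of endothelial cells, fell by 0.73 ± 0.162 (SE; adjusted p = 0.0498). Ms4a4d, a membrane protein of the MS4A family, fell by 0.73 ± 0.161 (SE; adjusted p = 0.0485), and its day differences spread between -1.49 on day 3 and -0.18 on day 28. Stxbp6, which binds proteins of vesicle fusion, fell by 0.61, Fcf1, a factor of ribosomal RNA processing, by 0.43 and Parva, an actin-binding partner of integrin-linked kinase, by 0.30. Qsox1, Stxbp6, Fcf1 and Parva are outside the naming rule and were added, after their values were seen, to complete the 17.

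By day, the median difference of the 17 shared lower genes was -0.65 on day 1, -0.99 on day 3, -0.49 on day 7, -0.76 on day 14 and -0.47 on day 28. Its lowest value was on day 3. The F test among iron days passed for 6 of the 17.

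The 14 shared higher genes were of mixed function. Of these, 7 (4933440N22Rik, Cadm4, Gdf11, Gm12238, Gm1673, Ttc8 and Zfp703) had a sham mean below the filter on mean signal, so they passed it only through the iron arrays; this was so for 0 of the 17 shared lower genes. Bcl2l11, which encodes the death-promoting protein Bim, ranged from 6.16 to 6.84 (median 6.50) on the iron arrays, against 5.78, 5.90 and 6.07 on the sham arrays. The groups were closest between day 1 replicate 1 and sham replicate 3. Bcl2l11 rose by 0.57 ± 0.0987 (SE; limma adjusted p = 0.0112), or 1.49-fold, with day differences of 0.36 to 0.73. Derl2, a part of the machinery that removes misfolded proteins from the endoplasmic reticulum, ranged from 6.99 to 7.53 (median 7.32) on the iron arrays, against 6.86, 6.90 and 6.82 on the sham arrays. It rose by 0.45 ± 0.0792 (SE; adjusted p = 0.0127), with day differences of 0.29 to 0.56. Gdf11, a secreted ligand of the TGF-beta family, ranged from 5.34 to 5.85 (median 5.67) on the iron arrays, against 5.16, 5.34 and 5.07 on the sham arrays. Its lowest iron array and its highest sham array are equal to 2 decimals, so the groups all but touched. Gdf11 rose by 0.46 ± 0.0804 (SE; adjusted p = 0.0138).

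Ttc8, a subunit of the complex that carries proteins to cilia, ranged from 5.56 to 6.35 (median 5.89) on the iron arrays, against 5.12, 5.55 and 5.48 on the sham arrays. It rose by 0.52 ± 0.102 (SE; adjusted p = 0.0275). Nelfa, a subunit of the complex that holds RNA polymerase II paused, ranged from 7.56 to 8.25 (median 7.98) on the iron arrays, against 7.35, 7.53 and 7.50 on the sham arrays. It rose by 0.48 ± 0.093 (SE; adjusted p = 0.0266). Both genes were nearest to sham on days 1 and 3 and differed among the iron days by the F test (adjusted p = 0.0473 for Ttc8 and 0.0376 for Nelfa). Pygo1, a co-activator in Wnt signalling, ranged from 7.25 to 7.69 on the iron arrays, against 6.95, 7.09 and 7.14 on the sham arrays, and rose by 0.38 ± 0.0806 (SE; adjusted p = 0.0445). Pym1, which helps to take exon junction complexes off mRNA, rose by 0.35 ± 0.0677 (SE; adjusted p = 0.0246).

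Gm1673 and 4933440N22Rik, genes with clone names only, were among the most even of the higher genes. Gm1673 rose by 0.41 ± 0.0845 (SE; adjusted p = 0.0388), with day differences of 0.35 to 0.49. 4933440N22Rik rose by 0.38 ± 0.0684 (SE; adjusted p = 0.0149), with day differences of 0.26 to 0.47. Cadm4, a cell adhesion molecule, rose by 0.32 ± 0.0707 (SE; adjusted p = 0.0485). Coq4, which acts in coenzyme Q synthesis, rose by 0.34, and the homeobox gene Barhl2 and the zinc-finger gene Zfp703 by 0.33 each. Coq4, Barhl2 and Zfp703 were likewise added after their values were seen.

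The largest shared higher difference was that of Gm12238, annotated as a small nucleolar RNA. It read 5.38, 5.32 and 5.15 on day 1, 5.96, 5.86 and 6.30 on day 3, 5.83 and 6.32 on day 7, 6.91 and 6.86 on day 14, and 6.79 and 6.93 on day 28, against 5.10, 4.99 and 4.93 on the sham arrays. The day 1 arrays lay just above sham and all later arrays far above it. Gm12238 rose by 1.22 ± 0.107 (SE), or 2.34-fold, with the smallest adjusted p of the comparison (0.000289), and differed among iron days (F test, adjusted p = 0.000183). Over the 14 shared higher genes the median difference was 0.23 on day 1, 0.46 on day 3, 0.51 on day 7, 0.45 on day 14 and 0.36 on day 28, and the F test passed for 5.

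**Figure D2:**
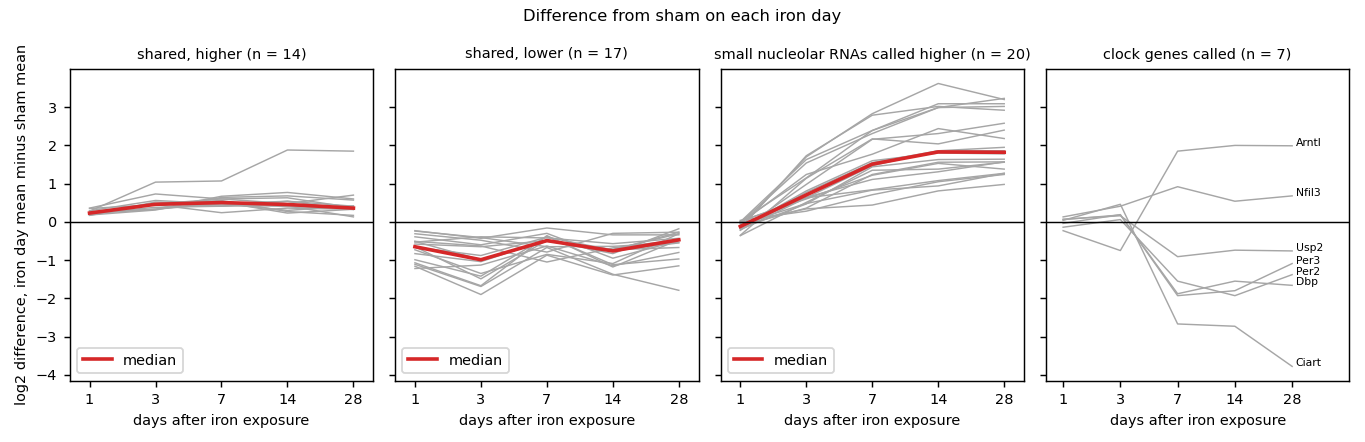
Difference of each iron day mean from the sham mean (log2) by day after exposure, 1 grey line per gene and the median in red, for the 14 shared higher genes, the 17 shared lower genes, the 20 small nucleolar RNAs called higher and the 7 clock genes called. The small nucleolar RNAs start near 0 on day 1 and end well above it, whereas Ciart ends at -3.78 and Arntl at 1.99 on day 28.

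Small nucleolar RNAs were the largest group among the called genes, and their median on day 1 was near sham. They were taken by symbol, which leaves out Gm12238. These RNAs guide chemical modification of ribosomal and other RNAs, and most are cut from introns of host genes. Of 52 on the array by symbol, 28 passed the filter on mean signal and 24 were not tested, and 7 of the 28 had a sham mean below the filter and so passed through the iron arrays. Of the 28, 20 were called higher, 14 of them among the 21 with a sham mean at or above the filter. The median was 0.98 over the 28 and 0.95 over those 21, against 0.000594 over all genes tested. With no filter on signal, 30 of the 52 were called higher and their median was 0.83. By day the median of the 28 was -0.13 on day 1, 0.62 on day 3, 1.40 on day 7, 1.59 on day 14 and 1.61 on day 28. Snord49b read 6.63, 6.35 and 6.48 on day 1, 7.10, 7.59 and 7.66 on day 3, 8.29 and 8.20 on day 7, 8.48 and 8.40 on day 14, and 8.41 and 8.44 on day 28, against 6.60, 6.48 and 6.84 on the sham arrays. Its day 1 arrays overlapped sham and all later arrays were above it. Snord49b rose by 1.17 ± 0.11 over all iron days (SE; adjusted p = 0.000336) and differed among them (F test, adjusted p = 3.57e-05).

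Other members followed the same course. Snora16a rose by 1.20 ± 0.129 (SE; adjusted p = 0.000711), with -0.15 on day 1 and 1.95 on day 28. Snord15b rose by 0.92, with -0.11 on day 1 and 1.57 on day 28, and Snora21 by 0.89, with -0.36 and 1.56 on those days. The sham mean of Snord15b (5.49) lay just below the filter on mean signal (5.5125), so it passed only through the iron arrays. Snord104 rose by 2.04 ± 0.245 (SE; adjusted p = 0.0011). Scarna17, a guide RNA of the Cajal body, rose by 1.18 ± 0.116 (SE; adjusted p = 0.0004) and was above sham by 0.28 on day 1. The long non-coding RNA Gm24463 rose by 0.91 ± 0.102 (SE; adjusted p = 0.000806), with -0.01 on day 1.

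Few host genes could be compared. Of the 20 called small nucleolar RNAs, 8 lie within a tested gene, and the 8 hosts had a median difference of 0.02 (-0.13 to 1.44), with 1 called. That host was Gas5, a non-coding RNA that holds Snord47: Gas5 rose by 1.44 ± 0.196 (SE; adjusted p = 0.00243) and Snord47 by 1.52 ± 0.203 (SE; adjusted p = 0.00213). The 3 other probe sets of Gas5 differed by -0.67 to -0.14, on the other side of sham, so its direction is uncertain. Snord73b, with the largest rise of the 20 at 2.24, lies in the ribosomal protein gene Rps3a1, whose difference was 0.23 (adjusted p = 0.204). Gas5, Snord47 and Snord73b were picked after their values were seen. The sham means of Snord47 (5.25) and Snord73b (4.44) lay below the filter on mean signal (5.5125), so both passed only through the iron arrays. Rplp1, a protein of the ribosomal stalk, was the 1 gene called among 51 cytosolic ribosomal protein genes (0.53 ± 0.0782 SE, adjusted p = 0.00394), whose median was 0.02. Rplp1 stood at 0.01 on day 1 and 0.77 on day 28.

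Most of the 7 called clock genes lay near sham on days 1 and 3 and apart from it on days 7, 14 and 28. In the circadian clock, Arntl and its partner drive the period genes and output factors such as Dbp, whose products feed back or act on other promoters, and Nfil3 opposes Dbp at shared sites. Arntl read 5.52, 4.87 and 4.43 on day 1, 4.75, 4.14 and 4.37 on day 3, 7.26 and 6.77 on day 7, 7.26 and 7.08 on day 14, and 7.19 and 7.14 on day 28, against 5.12, 4.80 and 5.59 on the sham arrays. Arntl had a sham mean of 5.17, below the filter on mean signal (5.5125), so it passed only through the later iron arrays. The arrays of days 1 and 3 overlapped or lay below sham and all later ones lay above it. The resulting mean difference was 0.97 ± 0.206 (SE; adjusted p = 0.041), and the F test among iron days gave an adjusted p of 0.000118. Ciart, a repressor that binds the Arntl protein, read 8.32, 8.12 and 8.19 on day 1, 8.51, 8.63 and 8.78 on day 3, 5.12 and 5.89 on day 7, 5.85 and 5.04 on day 14, and 4.35 and 4.43 on day 28, against 8.35, 8.42 and 7.75 on the sham arrays. Here too only days 7, 14 and 28 lay outside the sham range on the called side. Ciart fell by 1.74 ± 0.181 (SE; adjusted p = 0.000575) over all iron days.

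Dbp, Per2 and Per3 took a similar course. Dbp fell by 0.97 ± 0.11 (SE; adjusted p = 0.000806), with 0.06 on day 1 and -1.88 on day 7. Per2 fell by 0.99 ± 0.118 (SE; adjusted p = 0.0011), with -0.14 on day 1 and -1.55 on day 7. Per3 fell by 0.93 ± 0.116 (SE; adjusted p = 0.00133), with -0.04 on day 1 and -1.93 on day 7. Usp2, a deubiquitinase with a daily rhythm that was picked after its values were seen, fell by 0.44 ± 0.0803 (SE; adjusted p = 0.0186). Nfil3 rose by 0.54 ± 0.0764 (SE; adjusted p = 0.00342), and was already above sham on day 3 (0.41, adjusted p = 0.0241), with 0.13 on day 1 and 0.92 on day 7. Of 14 clock repressors and output factors tested 5 were called lower, with a median of -0.39, and of 4 activators (with Nfil3) 2 were called higher, with a median of 0.29. The hour of collection is not given in the sources used here, and its part in these differences was not tested.

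Promoters of 3 clock genes are shown, each with a match to a motif of the clock. A promoter of 300 bases, from 250 before to 50 after the gene start, was found in the RefSeq table (GRCm38.p6) for 6 of the 7 called clock genes. Capitals mark the E-box CACGTG, the D-box TTANNTAA and the core AGGTCA of a ROR element, each searched on both strands. The Ciart promoter (chr3:95882179-95882478, minus strand) holds 3 E-boxes, and the Per3 promoter (chr4:151044616-151044915, minus strand) holds 2 D-boxes. The second of 2 Arntl entries (chr7:113207261-113207560, plus strand) holds 1 AGGTCA, as does the Nfil3 promoter, which is not shown. The promoters of Dbp and Usp2 and the first Arntl entry hold no match to any of the 3 motifs. Of all 32851 promoters listed there, 7.15% hold an E-box, 6% a D-box and 16.3% an AGGTCA core. A match describes these letters only.
Ciart: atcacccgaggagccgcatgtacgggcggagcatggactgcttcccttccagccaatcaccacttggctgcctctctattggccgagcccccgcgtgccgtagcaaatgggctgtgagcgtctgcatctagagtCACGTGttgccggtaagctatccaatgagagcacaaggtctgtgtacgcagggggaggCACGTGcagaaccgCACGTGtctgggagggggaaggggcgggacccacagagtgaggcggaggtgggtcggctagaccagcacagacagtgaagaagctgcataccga
Per3: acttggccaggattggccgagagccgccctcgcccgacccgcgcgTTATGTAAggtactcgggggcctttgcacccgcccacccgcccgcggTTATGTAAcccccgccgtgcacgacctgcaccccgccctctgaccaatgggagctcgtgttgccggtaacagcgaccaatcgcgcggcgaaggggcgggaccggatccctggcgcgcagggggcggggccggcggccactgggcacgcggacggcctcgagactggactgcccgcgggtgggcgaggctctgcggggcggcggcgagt
Arntl: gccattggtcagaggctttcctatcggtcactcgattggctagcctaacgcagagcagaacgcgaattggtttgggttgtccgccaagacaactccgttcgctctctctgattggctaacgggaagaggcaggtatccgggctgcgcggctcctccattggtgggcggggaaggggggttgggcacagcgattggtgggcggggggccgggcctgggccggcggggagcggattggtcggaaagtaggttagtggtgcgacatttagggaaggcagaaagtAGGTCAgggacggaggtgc

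Lists of fibroblast markers, matrix genes, endothelial, pericyte, erythroid and atrial markers, TGF-beta signalling and growth factors had medians below sham on all 5 days. The sham mean of the atrial markers includes sham replicate 1, which had the highest atrial score (1.29). That of the erythroid markers includes sham replicate 2, which had the highest erythroid score (1.72). Against the sham day 3 array alone the erythroid median was -1.56. All 15 fibroblast markers tested had a negative difference, 3 were called (Postn, Lum and Mfap5), and the median was -0.70. Postn, the matricellular protein periostin, ranged from 6.35 to 8.48 (median 6.91) on the iron arrays, against 8.86, 8.71 and 8.20 on the sham arrays. The groups overlapped through iron day 1 replicate 1. Postn fell by 1.51 ± 0.218 (SE; adjusted p = 0.00359), or 2.84-fold. Mfap5, a microfibril protein, fell by 0.91 ± 0.195 (SE; adjusted p = 0.0436), and its highest iron array (7.30) passed the lowest sham array (7.21). Of 28 matrix genes, 27 had a negative difference, 4 were called (Aspn, Col8a1, Col6a3 and Hmcn1), and the median was -0.49. Aspn, a small proteoglycan, fell by 1.26 ± 0.212 (SE; adjusted p = 0.00988). On day 3 the medians were -1.16 for fibroblast markers and -0.84 for matrix genes, the lowest of the 5 days in both lists. Among the 17 shared lower genes, 4 are in these lists.

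Other lists held single calls or none. Their counts at an unadjusted p under 0.05 stand beside 1590 of 9969 over all genes tested, in both directions together. Of 17 endothelial markers 15 were below sham, with a median of -0.56, and 1 was called: Vwf, the clotting protein of endothelium, fell by 0.71 ± 0.159 (SE; adjusted p = 0.0498). The 19 apoptosis genes had a median of -0.02, with Bcl2l11 higher and Casp12 lower, and the 25 angiogenic and IGF growth factors had a median of -0.14, with Igf2 lower. Without a call by limma (0), the median was -0.39 over 7 pericyte markers (3 lower at an unadjusted p under 0.05), -0.95 over 5 atrial markers (3 lower) and -0.17 over 21 genes of TGF-beta signalling (9 lower). The atrial median was -0.32 without sham replicate 1 and 0.07 against the sham day 3 array alone. For the pericyte markers these medians were -0.23 and -0.09. Among 13 macrophage markers limma called 0, with 9 lower at an unadjusted p under 0.05 and a median of -0.53. By day their median was -0.87, -1.40, 0.56, -0.54 and -0.43, so day 7 lay above sham, and 0 of the 13 were lower on all 5 days. In DNA damage sensing and repair 0 of 20 genes were called, with 1 at an unadjusted p under 0.05 and a median of -0.01. Its smallest p was that of Ercc1, a subunit of a repair nuclease, at 0.21 ± 0.0832 (SE; adjusted p = 0.257). Among 12 p53 targets 0 were called, with 1 at an unadjusted p under 0.05 and a median of 0.01.

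Muscle and metabolic lists gave no call (0) by limma and lay near 0. The 20 cardiomyocyte markers had a median of -0.03 with 3 at an unadjusted p under 0.05, and 43 genes of oxidative phosphorylation had a median of 0.03 with 4. For 29 genes of fatty acid use the median was 0.06, and 0 had an unadjusted p under 0.05. Among 17 genes of iron handling the median was -0.19 with 3 at an unadjusted p under 0.05, and Cp, the ferroxidase ceruloplasmin, stood at -0.32 ± 0.103 (SE; adjusted p = 0.168). Among 23 immediate early genes the median was 0.21 with 5 at an unadjusted p under 0.05, and Ccn1, a matricellular protein, stood at 0.70 ± 0.217 (SE; adjusted p = 0.15). Among 15 heat shock genes the median was 0.24 with 5 at an unadjusted p under 0.05, and the chaperone Dnajb1 stood at 1.03 ± 0.386 (SE; adjusted p = 0.22). Among 39 microRNA genes the median was 0.16, with 9 higher and 2 lower at an unadjusted p under 0.05. Over all 49 lists, 9 held a called gene and 40 held none by limma. In 39 of those 40 genes were tested, and their medians ran between -1.56 (4 erythroid markers) and 0.28 (5 T cell markers). Of their 723 entries, 55 were higher and 64 lower at an unadjusted p under 0.05. Over all genes tested it was 1590 of 9969, in both directions together. Erfe, the hormone erythroferrone, is in none of the lists and was picked after its values were seen. Its sham mean of 5.29 lay below the filter on mean signal (5.5125), so it passed only through the iron arrays. It rose by 0.42 ± 0.092 (SE; adjusted p = 0.0453), with all 5 day means above sham and 1 iron array (5.51) just under the highest sham array (5.52).

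**Figure D3:**
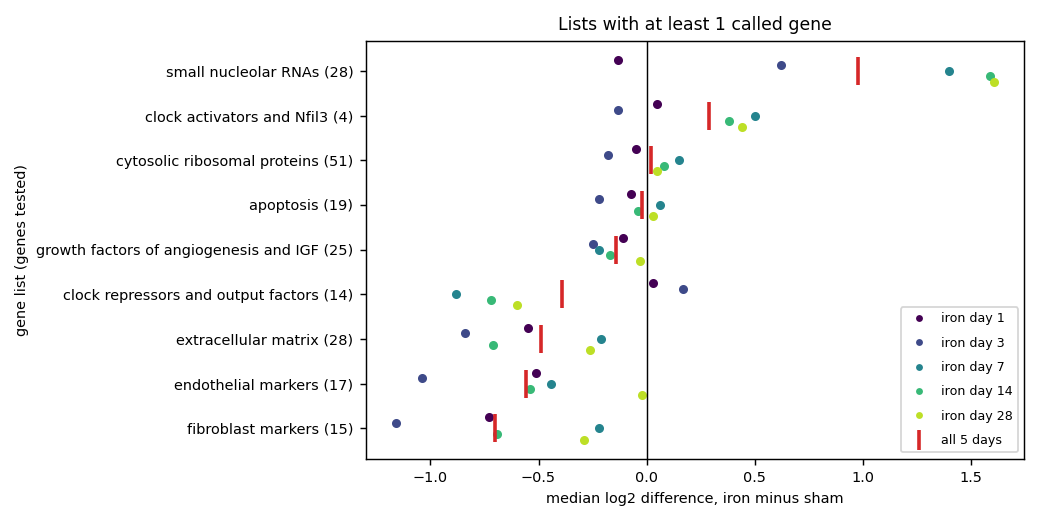
Median log2 difference, iron minus sham, of the genes tested in each list with at least 1 called gene (number tested in parentheses), as a point for each iron day and a red bar for all 5 days. Fibroblast, matrix, endothelial and growth factor medians lie below 0 on every day, with day 3 lowest, and the small nucleolar RNA median is -0.13 on day 1 and 1.61 on day 28.

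The mean level of the fibroblast markers was lower on every iron array than on every sham array. The fibroblast score was -0.67 to 0.44 (median -0.20) on the iron arrays and 0.51 to 0.59 on the sham arrays, without overlap. The mean log2 signal of the 16 markers was 6.61 to 7.72 on the iron arrays and 7.79 to 7.87 on the sham arrays. Scores of the other lists overlapped between groups. Matrix genes scored -0.49 to 0.46 on the iron arrays and 0.34 to 0.56 on the sham arrays. Endothelial markers scored -0.71 to 0.49 on the iron arrays and 0.27 to 0.55 on the sham arrays, and macrophage markers -0.92 to 1.38 on the iron arrays and 0.26 to 0.57 on the sham arrays. The cardiomyocyte score was -0.20 to 0.10 on the iron arrays and -0.03 to 0.07 on the sham arrays. With the fibroblast marker mean as a covariate limma called 19 genes, of which 1 was a shared gene (Gm12238, 1.26). The median of the 17 shared lower genes was then -0.33, against -0.67 without the covariate, and that of the 14 shared higher genes 0.36, against 0.40. That score itself separated iron from sham and includes Lum, so in this fit the score and the exposure cannot be told apart. The part of other cells in the result was not tested.

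**Figure D4:**
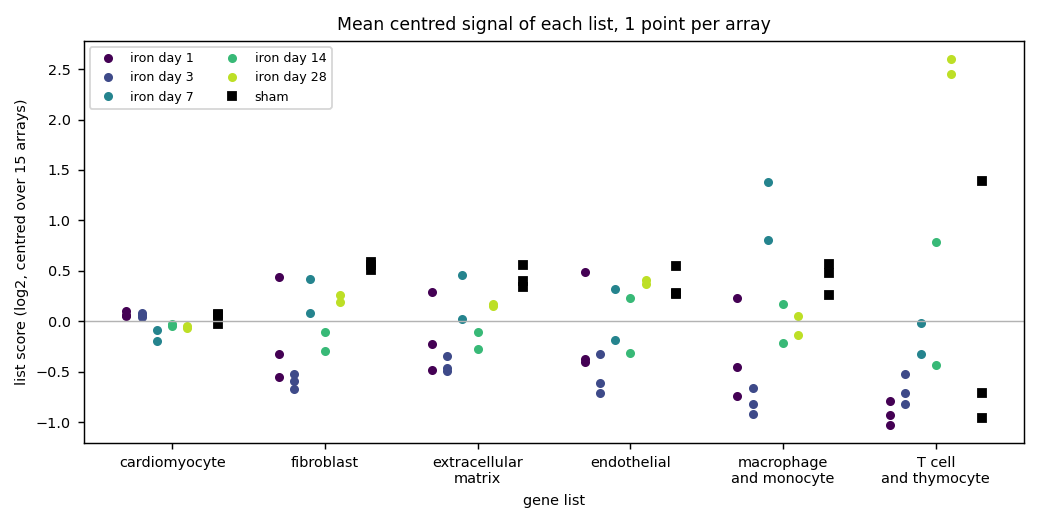
Score of each array for 6 gene lists, the mean of log2 signals centred over the 15 arrays (circles, iron arrays by day; black squares, sham arrays). The fibroblast squares, at 0.51 to 0.59, stand above all 12 circles, and in the T cell list both day 28 arrays (2.60 and 2.45) and 1 sham array (1.39) stand apart.

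The number of calls depended on how days and sham arrays were handled. With the iron arrays pooled into 1 group, each array weighted equally, limma called 0 genes (866 at an unadjusted p under 0.05). That fit held no day means, so differences among days counted as spread, and the median SE was 0.109, against 0.0888 as reported. With the iron arrays pooled and the day of collection as a random block, limma called 1 gene, Igf2 (-1.11 ± 0.169 SE, adjusted p = 0.0496). With days 1 and 3 compared within day it called 5 genes, all lower and none of them shared (1914 at an unadjusted p under 0.05). Of these 5, Cd74, H2-Aa, H2-Ab1 and H2-Eb1 act in MHC class II presentation, and the other was F630028O10Rik. Without sham replicate 1 it called 30 genes, with 2 of the 31 shared genes, and without iron day 1 replicate 1 it called 296, with all 31. Without the 4 arrays of highest T cell score 3 calls were made (Ciart, Gm24463 and Snord49b), and with the day 28 arrays averaged into 1 there were 61, with 16 of the shared genes. The 4 arrays of highest T cell score were both iron day 28 arrays, iron day 14 replicate 1 and sham replicate 3. Without them no day 28 array and no day 3 sham array was left, so that setting was not the same comparison. Of the 32 alternative settings Igf2 was called in 25 and Col8a1 and Qsox1 in 24 each. Genes of lower signal were tested in 31 of them, where Gm12238 was called in 27, Casp12 and Lum in 24 each, Bcl2l11 in 23 and Cadm4 in 5.

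**Figure D5:**
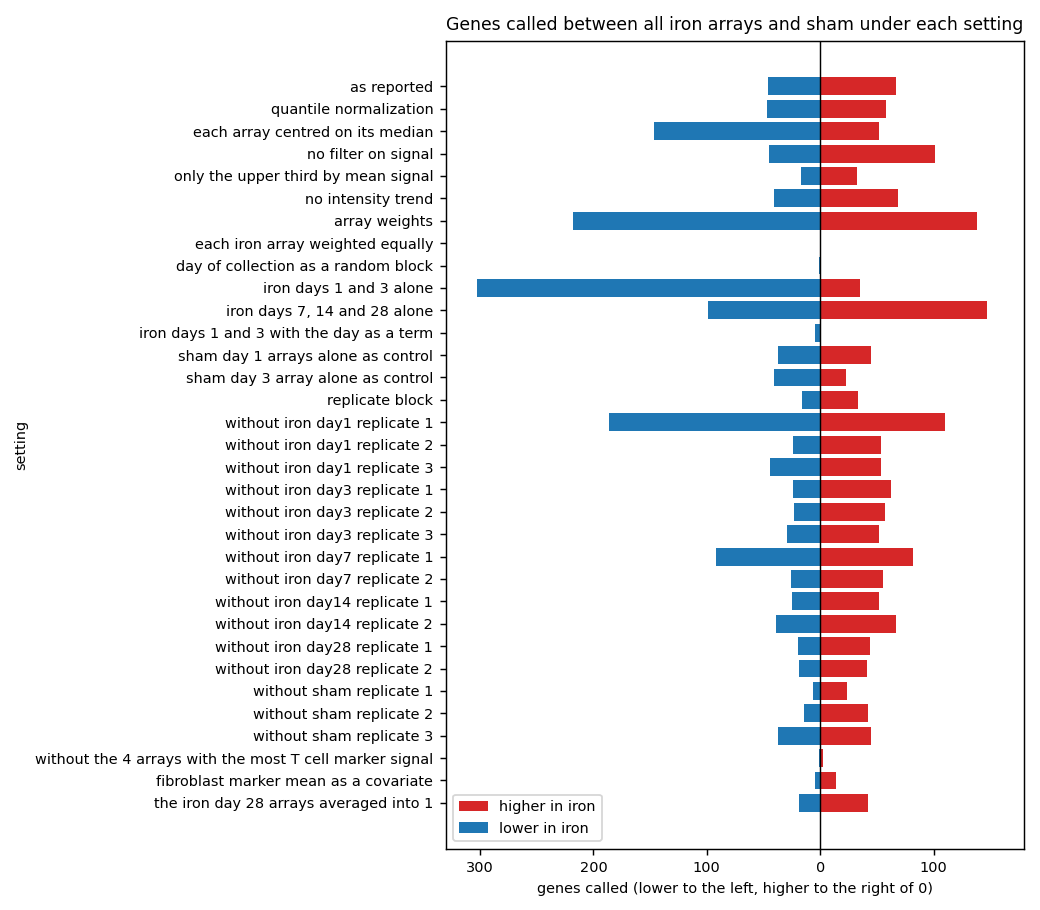
Number of genes called at an adjusted p under 0.05 between all iron arrays and sham, as reported and under 32 other settings (red, higher in iron; blue, lower in iron). The counts run between 0, with the iron arrays pooled into 1 group and each weighted equally, and 303 lower genes, with iron days 1 and 3 alone.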

How the data were processed

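Microarray signals of 15 arrays were taken as the authors deposited them, as log2 values of 34760 probe sets (0.234 to 13.01, array medians 4.96 to 5.13). The submitters' processing notes name MAS5; no source used here gives its version or which step it made. Each of 19937 genes was represented by its single-symbol probe set with the highest mean, and the 9969 genes at or above a mean of 5.5125 (the 50th percentile) were tested; 11799 probe sets with no symbol and 1321 with several were left out.

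limma 3.58.1 (R 4.3.3) fitted 6 group means (9 residual degrees of freedom, intensity trend), with Benjamini-Hochberg adjustment over all genes tested. The fit was tested on simulated data. The number of arrays limits the precision.

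Named genes were, in each direction, the 10 largest differences and the 5 most even among called genes whose arrays did not overlap, the 5 smallest p, up to 4 called members per list, the 5 smallest p with a day on the other side and the 5 smallest F tests; some predicted genes were passed over, as were most of the up to 2 members of lists without a call. The members and the 49 gene lists were chosen with earlier results of these data known. Of the 32 alternative settings 3 were chosen after seeing the data.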

Additional observations from a re-analysis of the deposited data

Results flagged for a closer look

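For the genes named here the difference from sham was not the same on the 5 iron days by the F test among iron days (limma, adjusted over 9969 genes, of which 19.2% passed). The value given is the range of the 5 day differences on the log2 scale. Among clock genes it was 4.25 for Ciart, 2.75 for Arntl, 2.12 for Per3, 2.07 for Dbp, 1.98 for Per2, 1.07 for Usp2 and 0.798 for Nfil3. Among non-coding RNAs it was 3.78 for Snord73b, 3.1 for Snord104, 2.48 for Snord47, 2.48 for Gas5, 2.11 for Snora16a, 1.95 for Snord49b, 1.92 for Snora21, 1.7 for Scarna17, 1.68 for Snord15b, 1.61 for Gm12238 and 1.59 for Gm24463. Among protein-coding genes that were lower in iron it was 1.32 for Mfap5, 1.31 for Ccdc80, 1.31 for Ms4a4d, 1.04 for Abca8a, 1.03 for Vwf, 0.675 for Stxbp6, 0.648 for Casp12 and 0.411 for Qsox1. Among protein-coding genes that were higher in iron it was 0.791 for Rplp1, 0.544 for Ttc8, 0.505 for Nelfa, 0.391 for Zfp703 and 0.382 for Coq4.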

How the results depend on the processing

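Counts of genes moved with the setting, and the cause was not tested. Genes called higher and lower over all iron days, against 67 and 46 as reported, and called genes with every iron array beyond every sham array, against 31, were as follows. Centring every array on its median gave 52, 147 and 51, and quantile normalization 58, 47 and 27. There were 101, 45 and 54 with no filter on signal and 32, 17 and 10 with the stricter filter on signal, where 6646 genes were tested. Array weights gave 138, 218 and 63. Pooling the iron arrays into 1 group, each weighted equally, gave 0, 0 and 0 by limma (866 at an unadjusted p under 0.05). The same with day as a random block gave 0, 1 and 1 (1494). Days 1 and 3 alone gave 35, 303 and 206, the same with the day as a term 0, 5 and 5 (1914), and days 7, 14 and 28 alone 147, 99 and 216. The sham day 1 arrays alone gave 45, 37 and 32, and the sham day 3 array alone 23, 41 and 52. Leaving out the 4 arrays of highest T cell score gave 2, 1 and 1, the fibroblast covariate 14, 5 and 1, and averaging the day 28 arrays 42, 19 and 16; these 3 settings were chosen after seeing the data. Genes that differ among iron days numbered 1911 as reported, 4051 with array weights, 639 with the fibroblast covariate and 611 with the day 28 arrays averaged. Leaving out 1 array at a time gave 24 to 110 higher genes, 6 to 186 lower, 7 to 92 with no overlap, 0 to 5 called on all 5 days (limma) and 611 to 2576 that differ among iron days; the fewest calls came without sham replicate 1 and the most without iron day 1 replicate 1.

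With the replicate number as a block there were 33 higher and 16 lower genes, 5 with no overlap and 1249 that differ among iron days. Whether the numbers pair the arrays is not known. Residual correlations of same-numbered arrays ran between -0.394 and 0.565 (median 0.0616, 11 of 31 pairs above 0.1). Those of other pairs ran between -0.565 and 0.49 (median -0.029, 14 of 50 pairs above 0.1). In a group of 2 arrays the residuals are exact opposites of each other, so these correlations cannot decide it.

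With iron days 1 and 3 alone, and then with the day as a term, the difference turned round for Arntl (-0.49 and -0.46), Ciart (0.25 and 0.23), Dbp (0.12 and 0.12), Per3 (0.08 and 0.05) and Usp2 (0.12 and 0.10), and with the day as a term for Snora21 (-0.03). Of 1702 values of 54 called named genes under the alternatives, 1028 kept direction and call, 663 lost the call and 11 turned round. The sham group of 3 arrays, from days 1 and 3 only, limits all of these results.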

Other observations

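Because Igf2 and Plagl1 are both imprinted, that is, expressed from the copy of 1 parent, 18 imprinted genes were picked after those values were seen, and no test was made of the group. Of these 13 were tested, 9 were below sham, 2 were called lower (Igf2 and Plagl1), and the median was -0.09. Nnat, which encodes neuronatin, stood at 0.27 ± 0.0689 (SE; limma adjusted p = 0.087), with every iron array above every sham array. Peg3, a zinc-finger protein, stood at -0.41 ± 0.182 (SE; adjusted p = 0.287), with 0.47 on day 1 and -0.91 on day 14.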
